A study of Homo sapiens with 89 samples.

Results

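The genes described here encode the complex that holds the cap of new transcripts in the nucleus, the adaptors that this complex recruits, and exonucleases that work beside the EXOSC10 subunit of the RNA exosome. They were chosen by name as NCBP1, NCBP2 and NCBP3, the adaptors SRRT, ZC3H18 and PHAX, the exosome nucleases DIS3 and DIS3L, and the 5′ exonucleases XRN1 and XRN2. All 10 were found among the 57905 genes counted, and all 10 passed the filter on low counts in both count tables. Of the 89 samples in the series, 15 libraries of polyadenylated RNA had a column in these tables, and the other 74 were not analysed here.

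The libraries came from a pair of human neuroblastoma cell lines. IMR-32 carried an shRNA against EXOSC10 that doxycycline switches on. Its 3 libraries labelled shEXOSC10 came from cells given 1 µg/ml doxycycline, and its 3 Control libraries came from cells given none, with solvent named in their column headings. SHEP cells carried a MYCN construct that doxycycline switches on. In SHEP, 3 libraries were labelled wild type MYCN and 3 were labelled MYCN 3A, a triple mutant described as unable to bind RNA, both with 1 µg/ml doxycycline. The other 3 SHEP libraries were labelled as having no MYCN and had no doxycycline, and their labels do not say which construct they carried. Doxycycline itself therefore cannot be told apart from the shRNA or from either form of MYCN, except between the wild type and 3A libraries, which both had it. The labels give neither clones nor cultures, and every p rests on how these libraries vary, which may be technical variation only.

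An RNA polymerase II transcript receives a methylated guanosine cap at its 5′ end soon after it starts. The nuclear cap-binding complex then holds the cap and, with its adaptors, directs the transcript to export or to decay. SRRT joins the complex to these routes, ZC3H18 links it to the nuclear exosome, and PHAX to export of small nuclear RNAs. The exosome digests RNA from its 3′ end, whereas XRN1 and XRN2 digest RNA from a 5′ end that has lost its cap.

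Library totals were 16394148 to 26193478 counts in IMR-32 and 11638859 to 15353505 counts in SHEP. Levels below are CPM, a gene's counts scaled to a library of fixed size after TMM correction. A change is a log2 fold change with its standard error (SE), and it is called where the adjusted p is under 0.05 (edgeR quasi-likelihood test, Benjamini-Hochberg over all tested genes), 17103 in IMR-32 and 14923 in SHEP. The summed level of 10 adrenergic marker genes was 2150 to 3734 CPM in IMR-32 and 71.6 to 89.1 CPM in SHEP, where TH and DBH were at 0 in all 9 libraries. The summed level of 10 mesenchymal marker genes was 604 to 823 CPM in IMR-32 and 6050 to 7518 CPM in SHEP. Leukocyte, epithelial, endothelial and Schwann cell markers summed to at most 16.6 CPM each, in any library.

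EXOSC10 had 49.0, 46.7 and 46.1 CPM in the shEXOSC10 libraries, against 74.6, 64.0 and 67.1 CPM in the Control libraries. It fell by 31.1% (edgeR adjusted p = 2.27e-08), and the groups did not overlap. MYCN had 596, 595 and 605 CPM in the shEXOSC10 libraries, against 1090, 1087 and 1115 CPM in the Control libraries, so MYCN fell there too (by 45.4%, edgeR adjusted p = 7.53e-30). The part of lower MYCN in the IMR-32 results was not tested. In SHEP, the MYCN row held 2, 0 and 0 counts in the libraries labelled wild type MYCN, 10, 0 and 0 counts in those labelled 3A, and 4, 0 and 0 counts in those labelled no MYCN. The table thus gives no check of the MYCN constructs, and SHEP groups are named below by their labels alone.

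The levels of the 10 transcripts spanned a wide range in each line, and the order differed between the lines. Exon length here counts all annotated exon bases of a gene, so the order of genes within a group depends on it. Per kilobase of exon, SRRT, the scaffold that bridges the cap to export and decay, was the most abundant in IMR-32, with 75.8 ± 2.30 CPM per kilobase in the shEXOSC10 libraries and 70.4 ± 0.549 in the Control libraries (SD, n = 3 each). XRN2, the nuclear 5′ exonuclease that ends RNA polymerase II transcription, ranked next in IMR-32, with 30.3 ± 2.08 and 34.9 ± 2.53 CPM per kilobase in the shEXOSC10 and Control libraries (SD, n = 3 each). In SHEP these positions were exchanged. XRN2 averaged 50.7 ± 0.783 CPM per kilobase in the libraries labelled wild type MYCN, 54.9 ± 2.98 in those labelled 3A and 53.4 ± 3.28 in those labelled no MYCN, and SRRT averaged 42.9 ± 0.418, 47.1 ± 4.89 and 42.8 ± 0.992 in the same groups (SD, n = 3 each). The ranges of XRN2 and SRRT overlapped only in the 3A libraries.

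NCBP2, the small subunit that grips the cap, ranked next below them in every group. In the Control libraries NCBP1, its large partner, NCBP3, an alternative partner of NCBP1, and DIS3, the catalytic subunit of the nuclear exosome, followed at 13.2, 10.3 and 7.60 CPM per kilobase. Neighbours down to DIS3 did not overlap in the Control libraries, whereas NCBP2 overlapped NCBP1, and NCBP1 overlapped NCBP3, in the shEXOSC10 libraries. PHAX overlapped ZC3H18, and XRN1 overlapped DIS3L, the catalytic subunit of the cytoplasmic exosome, in both IMR-32 groups. In SHEP, PHAX overlapped DIS3 in every group and XRN1, the cytoplasmic 5′ exonuclease, was the lowest, at 1.145 ± 0.288 CPM per kilobase with wild type MYCN, 0.759 ± 0.236 with 3A and 1.23 ± 0.109 with no MYCN (SD, n = 3 each).

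Between the lines without doxycycline, 3 transcripts were higher in IMR-32 Control than in SHEP no MYCN libraries and 7 were lower, per kilobase, with no overlap for any of the 10. XRN1 was 2.66 times as abundant in IMR-32 (3.26 against 1.23 CPM per kilobase), NCBP3 2.44 times (10.3 against 4.24) and SRRT 1.65 times (70.4 against 42.8). PHAX stood lowest relative to SHEP, at 0.382 times its SHEP level (6.32 against 16.5 CPM per kilobase), followed by DIS3L at 0.447 times (3.16 against 7.07). The lines were counted in separate tables, so line and experiment cannot be told apart and no test was made. Each line was also filtered and scaled on its own. The share of all genes without overlap between the lines was not counted, so 10 of 10 is not read as particular to these genes.

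**Figure D1:**
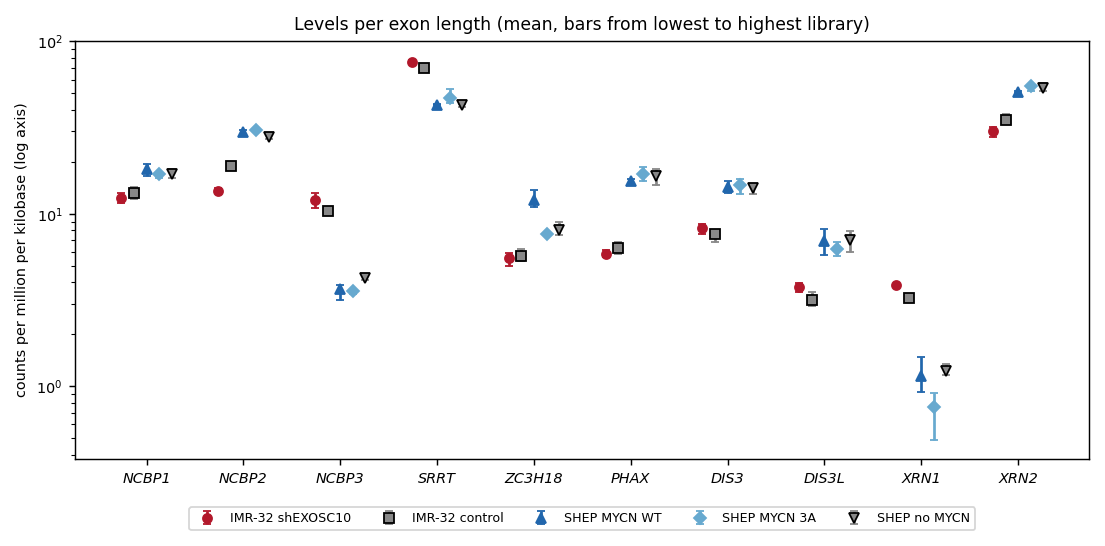
Level of each transcript per kilobase of exon (vertical log axis) in 5 groups, from left to right IMR-32 shEXOSC10 and Control, then SHEP wild type MYCN, 3A and no MYCN. Symbols are means of 3 libraries and bars run from the lowest to the highest library; NCBP3 and XRN1 lie lower in SHEP, and PHAX, DIS3 and DIS3L lie higher.

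The promoter windows below are shown because MYC family proteins bind the hexamer CACGTG, which reads the same on both strands, and because ZC3H18 and NCBP2 carried the changes with the smallest adjusted p in SHEP and IMR-32. The windows come from RefSeq (GRCh38.p14) and run from 250 bases before to 50 bases after the annotated start, in the direction of the gene. Of the 10 genes, 9 had at least 1 window, and NCBP1 had none in the table. The hexamer was found in windows of 2 of these 9 genes, ZC3H18 and XRN2. Over all genes it was found in 7.26% of 35116 windows, which is a share of windows and not of genes. The 9 genes have 11 windows, so these figures are not comparable. In ZC3H18 (chr16:88570153-88570452, plus strand) it begins 231 bases before the start, and in XRN2 (chr20:21303081-21303380, plus strand) 28 bases before it. XRN2 has a second annotated start and window (chr20:21303248-21303547), in which the same hexamer lies 195 bases before the start; the first window is printed. No match was found for NCBP2 (chr3:196942479-196942778, minus strand). Capitals mark the hexamer.
ZC3H18: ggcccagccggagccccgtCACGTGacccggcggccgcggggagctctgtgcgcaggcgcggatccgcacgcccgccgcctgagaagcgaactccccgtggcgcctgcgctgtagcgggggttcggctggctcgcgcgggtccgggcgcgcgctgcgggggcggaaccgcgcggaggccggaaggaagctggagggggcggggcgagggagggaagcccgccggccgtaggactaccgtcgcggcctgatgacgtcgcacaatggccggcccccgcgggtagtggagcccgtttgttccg
XRN2: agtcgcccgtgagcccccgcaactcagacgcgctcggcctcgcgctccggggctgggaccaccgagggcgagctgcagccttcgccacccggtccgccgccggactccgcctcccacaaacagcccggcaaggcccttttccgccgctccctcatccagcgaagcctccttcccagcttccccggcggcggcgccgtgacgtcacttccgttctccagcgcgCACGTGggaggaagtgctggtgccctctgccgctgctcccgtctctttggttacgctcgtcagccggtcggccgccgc
NCBP2: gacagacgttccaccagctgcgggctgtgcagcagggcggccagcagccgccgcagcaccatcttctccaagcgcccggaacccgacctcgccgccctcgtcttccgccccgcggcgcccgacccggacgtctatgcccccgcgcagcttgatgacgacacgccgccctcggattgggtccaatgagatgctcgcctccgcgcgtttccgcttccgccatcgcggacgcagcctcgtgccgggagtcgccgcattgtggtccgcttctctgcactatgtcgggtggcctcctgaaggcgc
The match is a description of letters in these windows, and no binding data were used.

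The first comparison addresses how the cap-binding and decay machinery is expressed when EXOSC10 is depleted. Of the 10 transcripts, NCBP3 and XRN1 rose and NCBP2 and XRN2 fell, so that 4 were called. The share called over all genes was 27.1%, with 13.5% higher and 13.7% lower, so 4 of 10 with 2 in each direction is not far from the background. Non-overlapping ranges were seen for 6 of the 10, beside 38.4% of all genes. In bulk RNA, less RNA per cell and fewer cells of a kind cannot be told apart. The median log2 fold change was 0.04 over the 10 and 0.00 over all tested genes.

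NCBP2 (ENSG00000114503; hg19 chromosome 3, 196662273 to 196669468, minus strand, 5114 exon bases) showed the change with the smallest adjusted p among the 10. NCBP2 had 67.2, 69.3 and 72.5 CPM in the shEXOSC10 libraries, against 92.5, 97.7 and 99.1 CPM in the Control libraries. Every shEXOSC10 library lay below every Control library. NCBP2 fell by 27.7% (log2 fold change -0.47, SE 0.07, 95% interval -0.60 to -0.34, edgeR adjusted p = 1.94e-08), and it was called under all 11 alternative settings, including each library left out in turn. NCBP2-AS1 on the opposite strand covers 2.78% of its exon bases.

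The other subunits of the complex did not follow NCBP2. NCBP1 (ENSG00000136937; chromosome 9, 100395908 to 100436030, plus strand) had 68.4, 73.3 and 64.4 CPM in the shEXOSC10 libraries, against 67.5, 79.2 and 73.0 CPM in the Control libraries. These ranges overlapped, and the log2 fold change was -0.09 (95% interval -0.24 to 0.05, edgeR adjusted p = 0.359). NCBP3 (ENSG00000074356; chromosome 17, 3714460 to 3749545, minus strand), which can pair with NCBP1 in messenger RNA export, had 75.1, 61.9 and 69.0 CPM in the shEXOSC10 libraries, against 60.4, 58.0 and 59.0 CPM in the Control libraries. Replicate 2 of the shEXOSC10 group came within 2 CPM of the highest Control library, and the groups did not overlap. NCBP3 rose by 16.3% (log2 fold change 0.22, SE 0.07, edgeR adjusted p = 0.019). That call was lost without Control replicate 2 (edgeR adjusted p = 0.0689), without shEXOSC10 replicate 1 (0.206) and without shEXOSC10 replicate 3 (0.0665).

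Because NCBP2 was lower and NCBP3 higher, their ratio moved more than either level. The log2 ratio of NCBP3 to NCBP2 per kilobase was 0.00, -0.32 and -0.23 in the shEXOSC10 libraries, against -0.78, -0.91 and -0.91 in the Control libraries. Per exon length, NCBP3 thus reached the level of NCBP2 in shEXOSC10 replicate 1 and stayed below it in the other libraries of both groups. This equality depends on the annotated exon bases, 5717 for NCBP3 and 5114 for NCBP2, whereas the difference between groups does not. The mean ratios differed by 0.68 with no overlap (exact two-sided permutation test, p = 0.1, the smallest that 3 against 3 libraries allow).

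Among the adaptors, SRRT (ENSG00000087087; chromosome 7, 100472733 to 100486285, plus strand) had 337.8, 347.0 and 358.8 CPM in the shEXOSC10 libraries, against 321.1, 321.8 and 325.8 CPM in the Control libraries. All shEXOSC10 libraries lay above all Control libraries, by a small margin. The log2 fold change was 0.11 (95% interval 0.02 to 0.20), which missed the threshold in edgeR (adjusted p = 0.0668) and passed it in DESeq2 (adjusted p = 0.036). It also passed in edgeR once the trend along exon length was removed (log2 fold change 0.12, edgeR adjusted p = 0.0353). ZC3H18 ranged from 43.1 to 51.1 CPM in the shEXOSC10 libraries and from 46.0 to 53.8 CPM in the Control libraries, with a log2 fold change of -0.03 (95% interval -0.19 to 0.14, edgeR adjusted p = 0.852). PHAX (ENSG00000164902; chromosome 5, 125935960 to 125962944, plus strand) ranged from 24.2 to 26.7 CPM in the shEXOSC10 libraries and from 25.2 to 29.5 CPM in the Control libraries, with a log2 fold change of -0.11 (95% interval -0.32 to 0.09, edgeR adjusted p = 0.451). Both pairs of ranges overlapped.

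The other catalytic subunits of the exosome were not called with EXOSC10 depleted. DIS3 (ENSG00000083520; chromosome 13, 73329540 to 73356234, minus strand) had 66.6, 57.7 and 64.5 CPM in the shEXOSC10 libraries, against 52.4, 60.1 and 60.9 CPM in the Control libraries. The ranges overlapped, and the log2 fold change was 0.12 (95% interval -0.03 to 0.27, edgeR adjusted p = 0.24). DIS3L (ENSG00000166938; chromosome 15, 66585555 to 66626236, plus strand) had 20.8, 19.1 and 21.7 CPM in the shEXOSC10 libraries, against 16.6, 19.0 and 15.9 CPM in the Control libraries. The lowest shEXOSC10 library barely exceeded the highest Control library, and the log2 fold change was 0.26 (95% interval 0.03 to 0.49, edgeR adjusted p = 0.0883). BORA on the opposite strand covers 10.5% of the exon bases of DIS3, the most for any of the 10 genes, and no gene on the same strand shares exon bases with them.

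The 5′ exonucleases moved in opposite directions. XRN2 (ENSG00000088930; chromosome 20, 21283942 to 21370463, plus strand, 3489 exon bases) had 97.4, 109.1 and 110.6 CPM in the shEXOSC10 libraries, against 115.3, 118.6 and 131.9 CPM in the Control libraries. All shEXOSC10 libraries were lower, and XRN2 fell by 13.3% (log2 fold change -0.21, SE 0.06, edgeR adjusted p = 0.00735). This call was lost without Control replicate 3 (edgeR adjusted p = 0.0938) and without shEXOSC10 replicate 1 (0.101). XRN1 (ENSG00000114127; chromosome 3, 142025449 to 142166904, minus strand, 11982 exon bases) had 46.7, 47.0 and 45.1 CPM in the shEXOSC10 libraries, against 40.4, 39.1 and 37.6 CPM in the Control libraries. All shEXOSC10 libraries were higher, and XRN1 rose by 18.3% (log2 fold change 0.24, SE 0.08, edgeR adjusted p = 0.0207). The XRN1 call was lost without Control replicate 2 or 3 and without shEXOSC10 replicate 1 or 2 (edgeR adjusted p = 0.0559 to 0.0804). It was also lost once the trend of each library along exon length was removed (log2 fold change 0.21, edgeR adjusted p = 0.0526).

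Marker levels moved with the groups in IMR-32. The 10 adrenergic markers summed to 2150 to 2211 CPM in the shEXOSC10 libraries, against 3440 to 3734 CPM in the Control libraries, with 8 lower and 2 higher among 10 tested and none at 0 in every library of a group. The 10 mesenchymal markers summed to 792 to 823 CPM in the shEXOSC10 libraries, against 604 to 637 CPM in the Control libraries, with 2 higher and 1 lower among 6 tested and PRRX1 at 0 in all 3 shEXOSC10 libraries. Over all genes, 13.5% were called higher and 13.7% lower. The part of these marker shifts in the changes above was not tested.

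**Figure D2:**
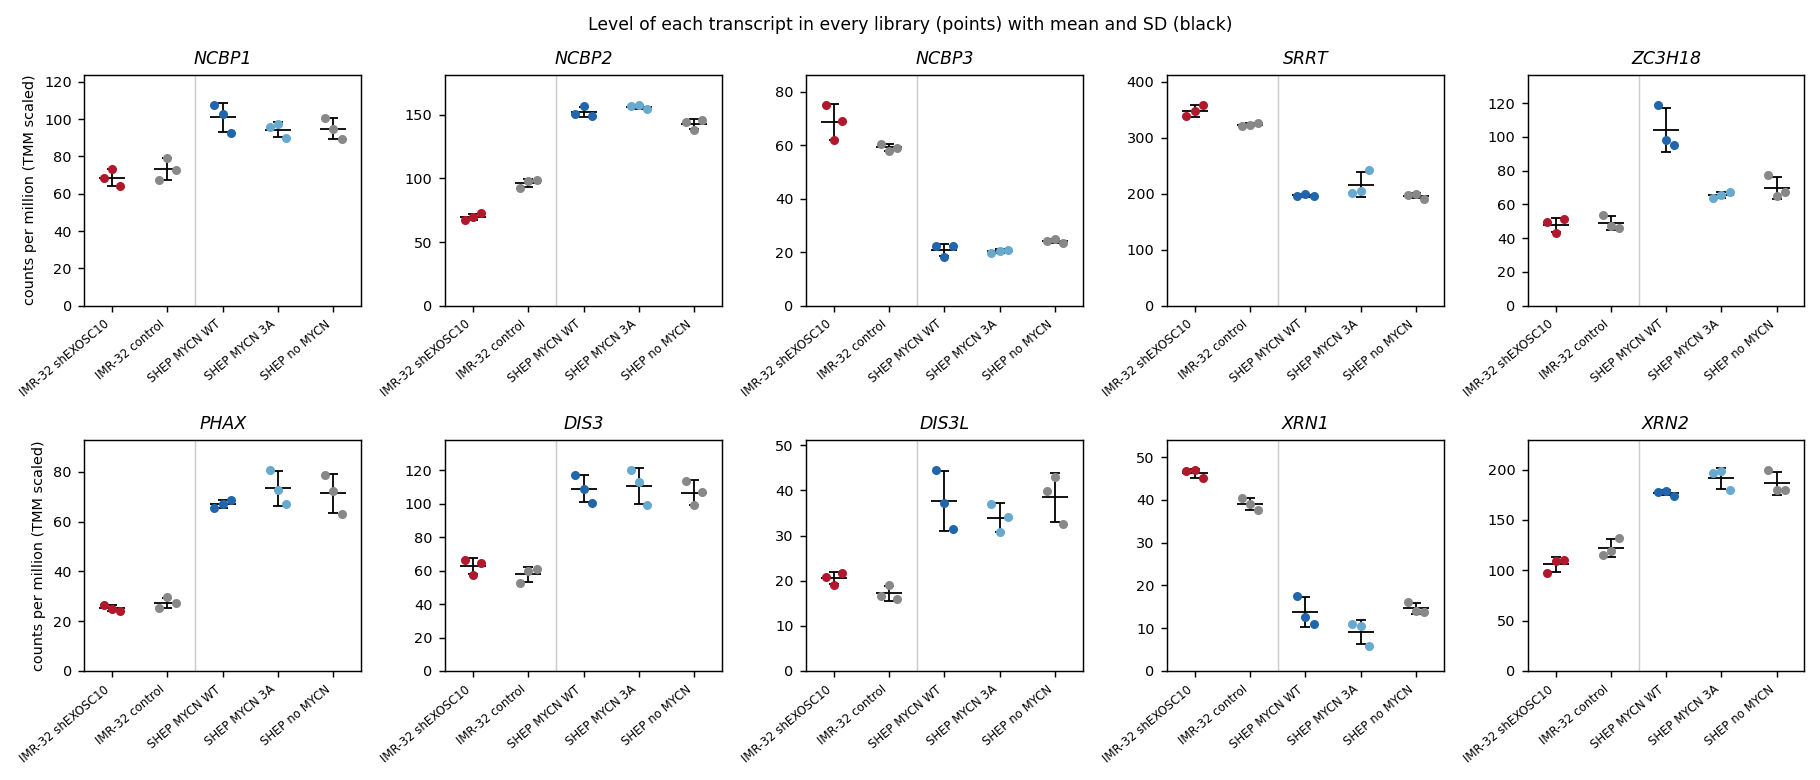
Level in CPM of each of the 10 transcripts (vertical axes from 0) in every library, with IMR-32 shEXOSC10 and Control left of the line and SHEP wild type MYCN, 3A and no MYCN right of it. Points are libraries and black marks show mean and SD of 3; NCBP2 is lower in all 3 shEXOSC10 libraries, and ZC3H18 is above 90 CPM only in the 3 libraries labelled wild type MYCN.

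The next comparison addresses which of these transcripts change when wild type MYCN is induced in SHEP. ZC3H18, the adaptor between the cap-binding complex and the nuclear exosome, rose and was the only one of the 10 called. The share called over all genes was 22.2%, so 1 of 10 is not far from the background. The ranges did not overlap for 4 of the 10, beside 37.5% of all genes. The median log2 fold change was -0.01 over the 10 and 0.00 over all tested genes.

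ZC3H18 (ENSG00000158545; chromosome 16, 88636789 to 88698374, plus strand, 8648 exon bases) had 119.0, 98.4 and 94.96 CPM in the libraries labelled wild type MYCN, against 77.4, 64.7 and 67.1 CPM in those labelled no MYCN. Every wild type library lay above every library without MYCN, and the highest of each group was replicate 1. ZC3H18 rose by 49.2% (log2 fold change 0.58, SE 0.10, 95% interval 0.37 to 0.78, edgeR adjusted p = 1.83e-04). It was called under all 12 alternative settings, and its log2 fold change was still 0.58 once the trend along exon length was removed (edgeR adjusted p = 1.52e-05).

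The other 9 transcripts were not called with wild type MYCN. NCBP3 had 22.2, 18.1 and 22.2 CPM in the wild type libraries, against 24.2, 25.1 and 23.5 CPM in the libraries labelled no MYCN. The groups did not overlap, with a log2 fold change of -0.22 (95% interval -0.49 to 0.04, edgeR adjusted p = 0.236). NCBP2 had 150.8, 157.1 and 149.0 CPM in the wild type libraries, against 144.1, 138.2 and 146.2 CPM in the libraries labelled no MYCN, again without overlap, with a log2 fold change of 0.09 (95% interval -0.07 to 0.25, edgeR adjusted p = 0.435). XRN2 had 177.9, 179.1 and 173.9 CPM against 199.5, 179.7 and 179.7 CPM in the same groups, a log2 fold change of -0.07 (95% interval -0.24 to 0.09, edgeR adjusted p = 0.558). For NCBP1, SRRT, PHAX, DIS3, DIS3L and XRN1 the ranges overlapped and the log2 fold changes lay between -0.10 and 0.09. Their widest interval was that of XRN1, from -0.51 to 0.32, and their narrowest that of SRRT, from -0.17 to 0.17.

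The same question was put for the 3A form, described as deficient in RNA binding. XRN1 fell and was the only one of the 10 called, beside 25.5% of all genes. The ranges did not overlap for 4 of the 10, beside 41.3% of all genes. This comparison shares its 3 libraries labelled no MYCN with the previous one.

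XRN1 had 10.9, 10.5 and 5.83 CPM in the libraries labelled 3A, against 16.2, 14.03 and 13.8 CPM in those labelled no MYCN, from 74 to 261 counts a library. All 3A libraries were lower, and replicate 3 of 3A was the lowest of all 9. XRN1 fell by 38.2% (log2 fold change -0.69, SE 0.21, 95% interval -1.12 to -0.26, edgeR adjusted p = 0.0175). The call was lost without 3A replicate 3 (log2 fold change -0.46, edgeR adjusted p = 0.119) and without no MYCN replicate 1 (-0.62, adjusted p = 0.0781). XRN1 has the longest exons of the 10, and long genes as a class differed between these libraries. Genes of the longest of 5 length classes, above 7696 exon bases, deviated by a median log2 of -0.10, -0.11 and -0.17 from the mean of the SHEP libraries in the 3A libraries, against 0.14, 0.06 and 0.02 in the libraries labelled no MYCN, and the shortest class went the other way. Once this trend was removed from each library, XRN1 was not called (log2 fold change -0.46, 95% interval -0.84 to -0.09, edgeR adjusted p = 0.0675).

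ZC3H18 was not higher with 3A. It had 63.8, 65.4 and 67.5 CPM in the 3A libraries, against 77.4, 64.7 and 67.1 CPM in the libraries labelled no MYCN. The ranges overlapped, and the log2 fold change was -0.09 (95% interval -0.30 to 0.12, edgeR adjusted p = 0.559), or 0.09 once the trend along exon length was removed (adjusted p = 0.525). NCBP3 had 19.5, 20.5 and 20.9 CPM in the 3A libraries, all below the 24.2, 25.1 and 23.5 CPM in those labelled no MYCN, with a log2 fold change of -0.26 (95% interval -0.53 to 0.01, edgeR adjusted p = 0.152). NCBP2 had 156.6, 158.1 and 154.5 CPM in the 3A libraries, all above the 144.1, 138.2 and 146.2 CPM in those labelled no MYCN, with a log2 fold change of 0.13 (95% interval -0.03 to 0.29, edgeR adjusted p = 0.224). SRRT had 201.9, 204.1 and 241.8 CPM in the 3A libraries, all above the 197.9, 199.5 and 190.9 CPM in those labelled no MYCN, with a log2 fold change of 0.14 (95% interval -0.03 to 0.31, edgeR adjusted p = 0.228). NCBP1, PHAX, DIS3, DIS3L and XRN2 overlapped, with log2 fold changes from -0.18 for DIS3L to 0.06 for DIS3.

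The comparison of wild type with 3A holds doxycycline constant and sets the forms against each other by label. The level of each form could not be checked here, so form, construct level and culture cannot be told apart. ZC3H18 and XRN1 were higher with wild type MYCN and no transcript was lower, so 2 of 10 were called, beside 30.3% of all genes and 15.8% higher. The ranges did not overlap for 4 of the 10, beside 40.4% of all genes.

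ZC3H18 had 119.0, 98.4 and 94.96 CPM in the wild type libraries, against 63.8, 65.4 and 67.5 CPM in the 3A libraries. The lowest wild type library stood well above the highest 3A library. ZC3H18 was 58.8% higher with wild type MYCN (log2 fold change 0.67, SE 0.10, 95% interval 0.46 to 0.88, edgeR adjusted p = 3.82e-05) and was called under all 12 alternative settings. With the trend along exon length removed, the log2 fold change was 0.49 (95% interval 0.31 to 0.67, edgeR adjusted p = 1.27e-04). EXOSC10 had 105.6, 91.5 and 82.6 CPM in the wild type libraries, against 62.6, 57.1 and 64.9 CPM in the 3A libraries. It was 51.5% higher with wild type MYCN than with 3A (edgeR adjusted p = 2.5e-04). The libraries labelled no MYCN had 90.1, 83.7 and 69.5 CPM, all above 3A and overlapping wild type. With the trend along exon length removed, EXOSC10 was called lower with 3A than with no MYCN (log2 fold change -0.30, edgeR adjusted p = 0.0263). With wild type MYCN against no MYCN it was not called in that setting (0.20, edgeR adjusted p = 0.141).

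XRN1 had 17.6, 12.5 and 11.01 CPM in the wild type libraries, against 10.9, 10.5 and 5.83 CPM in the 3A libraries. The groups touched without overlapping, since the lowest wild type library was within 1 CPM of the highest 3A library. The log2 fold change was 0.60 (SE 0.21, 95% interval 0.16 to 1.03, edgeR adjusted p = 0.034). It was not called without 3A replicate 3 (0.36, edgeR adjusted p = 0.208), without wild type replicate 1 (0.38, adjusted p = 0.223) or with the trend along exon length removed (0.36, 95% interval -0.01 to 0.74, adjusted p = 0.142). The longest class of genes deviated by a median log2 of 0.20, 0.04 and -0.05 in the wild type libraries, against -0.10, -0.11 and -0.17 in the 3A libraries. Ordered by XRN1 level, the 9 SHEP libraries stood in the order of this deviation, except that wild type replicate 2 and no MYCN replicate 3 changed places. XRN1 itself belongs to this class, and the 3A libraries have the lowest deviations, so the trend and a group difference cannot be told apart. Whether removing the trend also removes part of a group difference was not tested.

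**Figure D3:**
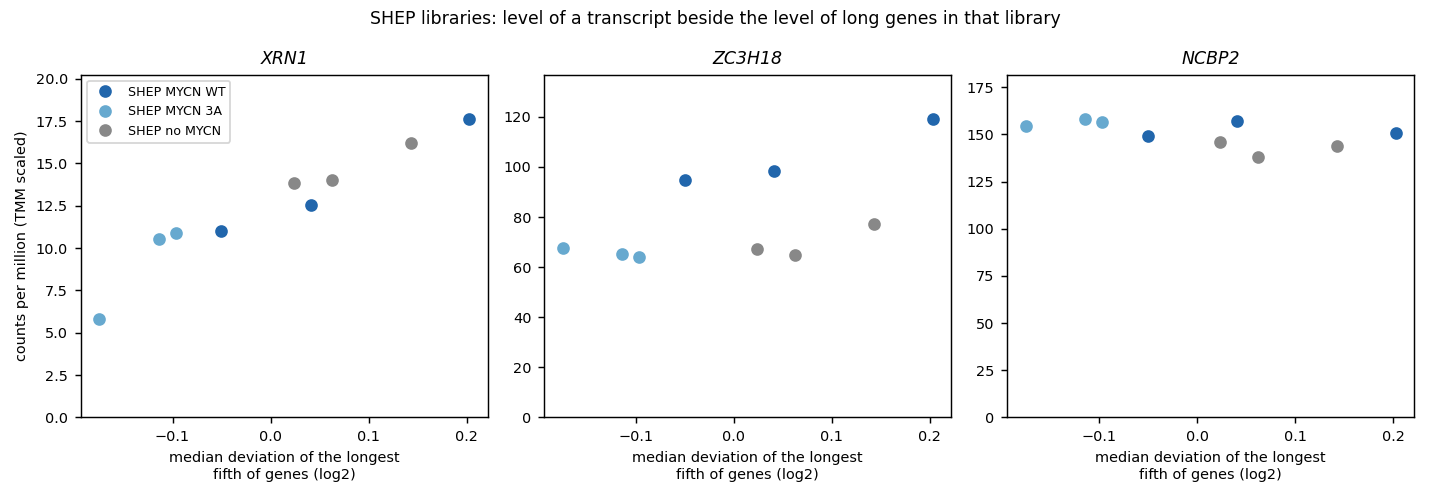
Level in CPM (vertical axes from 0) of XRN1, ZC3H18 and NCBP2 in the 9 SHEP libraries, against the median log2 deviation of the longest of 5 length classes of genes in the same library. Points are libraries; XRN1 is lowest (5.83 CPM) where long genes are lowest (-0.17) and highest (17.6 CPM) where they are highest (0.20), while ZC3H18 is higher in the 3 wild type libraries than in all others.

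The remaining 8 transcripts were not called between the forms. SRRT had 194.9, 198.7 and 196.4 CPM in the wild type libraries, all below the 201.9, 204.1 and 241.8 CPM in the 3A libraries, with a log2 fold change of -0.13 (95% interval -0.31 to 0.04, edgeR adjusted p = 0.229). XRN2 had 177.9, 179.1 and 173.9 CPM in the wild type libraries, all below the 196.5, 198.5 and 179.6 CPM in the 3A libraries, with a log2 fold change of -0.11 (95% interval -0.28 to 0.05, edgeR adjusted p = 0.3). NCBP1, NCBP2, NCBP3, PHAX, DIS3 and DIS3L overlapped, with log2 fold changes from -0.13 for PHAX to 0.15 for DIS3L. The widest of their 95% intervals were those of DIS3L, from -0.13 to 0.43, and NCBP3, from -0.24 to 0.31. The 10 mesenchymal markers, all tested and none at 0 throughout, summed to 7393 to 7518 CPM with wild type MYCN. The sums were 6050 to 6421 CPM with 3A and 6987 to 7399 CPM with no MYCN. Between wild type and 3A 7 were higher and 2 lower, beside 15.8% and 14.5% of all genes. With the trend along exon length removed these were 5 and 2. Against no MYCN 4 rose and 4 fell with wild type, and 1 rose and 6 fell with 3A. The shares called over all genes there were 22.2% and 25.5%. The part of these marker shifts in the SHEP results was not tested.

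**Figure D4:**
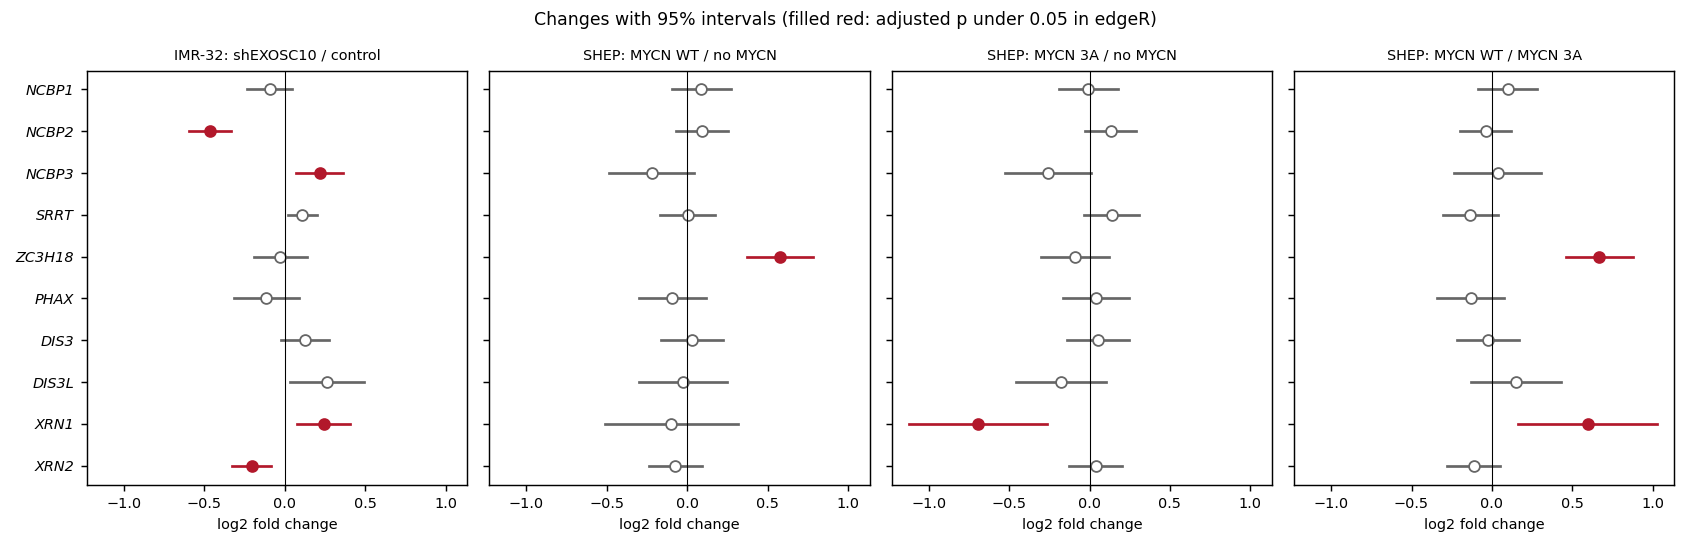
Log2 fold change of each transcript (horizontal axis) with its 95% interval in 4 comparisons, from left to right shEXOSC10 over Control for IMR-32, then wild type MYCN over no MYCN, 3A over no MYCN and wild type MYCN over 3A in SHEP. Filled red points have an edgeR adjusted p under 0.05; NCBP2 (-0.47) stands out in the first panel and ZC3H18 (0.58 and 0.67) in the second and the last.

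Ratios between related transcripts in the same library do not depend on how the library was scaled. In SHEP, the log2 ratio of NCBP3 to NCBP2 per kilobase was -3.04 ± 0.21 with wild type MYCN, -3.11 ± 0.058 with 3A and -2.72 ± 0.087 with no MYCN (SD, n = 3 each). Both MYCN groups lay below the group without MYCN, with no overlap in either case (exact two-sided permutation test, p = 0.1 for each, the smallest possible). In IMR-32, the log2 ratio of XRN2 to XRN1 was 2.97 ± 0.119 in the shEXOSC10 libraries and 3.42 ± 0.152 in the Control libraries (SD, n = 3 each; exact permutation test, p = 0.1, no overlap). In SHEP this ratio was 5.50 ± 0.338 with wild type MYCN, 6.23 ± 0.429 with 3A and 5.45 ± 0.0391 with no MYCN (SD, n = 3 each). The 3A libraries lay above both other groups (exact permutation test, p = 0.1 for each), and since XRN1 has 11982 exon bases and XRN2 3489, the trend along exon length enters this ratio. The log2 ratio of DIS3L to DIS3 overlapped in every comparison, with means from -1.27 to -0.996 over the 5 groups.

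**Figure D5:**
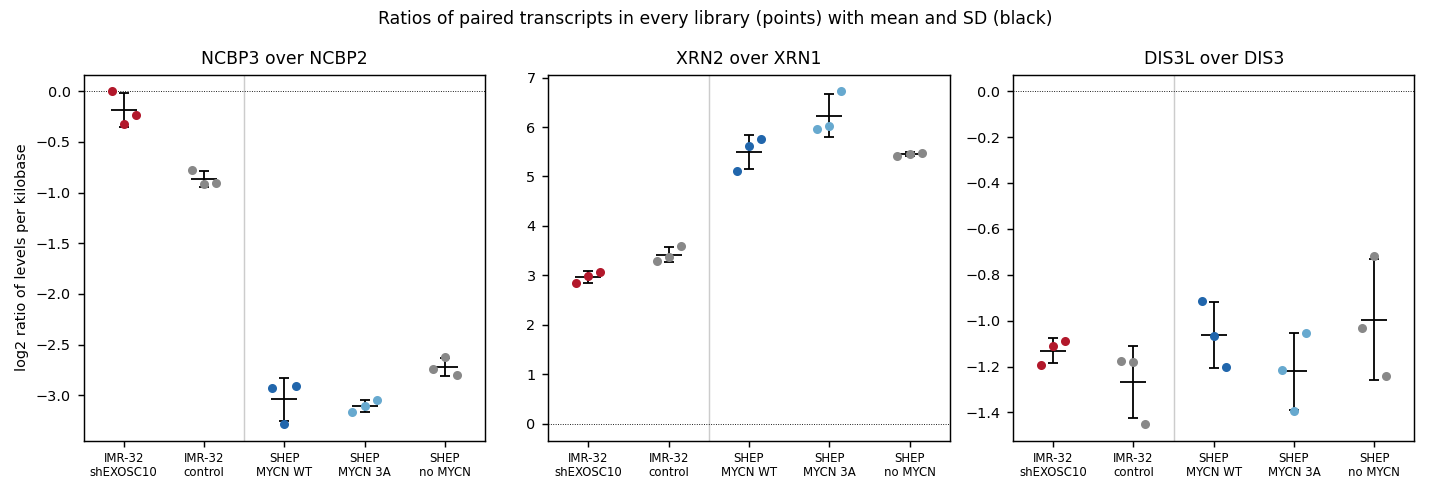
Log2 ratio of levels per kilobase for 3 pairs of transcripts in every library (points) with mean and SD of 3 libraries (black); groups run from left to right as IMR-32 shEXOSC10 and Control, then SHEP wild type MYCN, 3A and no MYCN. NCBP3 over NCBP2 is nearest to 0 in the shEXOSC10 libraries (-0.19 on average), and XRN2 over XRN1 is highest with 3A (6.23).

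Transcripts with the most similar pattern were sought for NCBP2, ZC3H18 and XRN2, which have the smallest adjusted p of the 10. Likeness was Pearson's r of log2 CPM over the 15 libraries after subtracting the mean of each line, among 11946 genes. It is a description, since the libraries share depth and treatment. The genes were picked from these same libraries, so their own changes given below are no separate evidence. For NCBP2 the nearest were CEBPB, a leucine zipper transcription factor (r = 0.96), and GARS1, the glycyl-tRNA synthetase (r = 0.96). CEBPB had a log2 fold change of -1.82 and GARS1 of -1.05 with EXOSC10 depleted (edgeR adjusted p = 7.91e-20 and 1.24e-26). For ZC3H18, MPRIP, a myosin phosphatase partner, was among the nearest (r = 0.95), with a log2 fold change of 0.40 between wild type and 3A (edgeR adjusted p = 0.00119). For XRN2 the nearest were MSI2, an RNA-binding protein (r = 0.90), and YY1, a zinc finger transcription factor (r = 0.89). Among pairs of the 10, r was highest for NCBP2 with XRN2 (0.72) and lowest for NCBP2 with NCBP3 (-0.69).

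Genes that act before, beside and after the 10 were counted from lists assembled by function. Over all genes, 13.5% were called higher and 13.7% lower with EXOSC10 depleted, 10.9% and 11.3% with wild type MYCN against no MYCN, 12.7% and 12.8% with 3A against no MYCN, and 15.8% and 14.5% between wild type and 3A. No list was tested as a group, and the SHEP comparisons share libraries. Of 6 genes that build or modify the cap, 1 was lower with EXOSC10 depleted and none was higher, beside 27.1% of all genes called. It was RNGTT, the capping enzyme, with 14.2 ± 0.742 CPM in the shEXOSC10 libraries and 26.4 ± 0.969 CPM in the Control libraries (SD, n = 3 each; log2 fold change -0.90, edgeR adjusted p = 8.8e-10). With wild type MYCN 1 of the 6 rose, RNMT, the cap methyltransferase (log2 fold change 0.40, edgeR adjusted p = 0.00863), and 1 fell, PCIF1, which methylates the adenosine next to the cap (-0.38, adjusted p = 0.0265). With 3A 2 of the 6 fell, CMTR1, a cap ribose methyltransferase (-0.37, edgeR adjusted p = 0.0116), and RNGTT (-0.41, adjusted p = 0.021), and with the trend along exon length removed RNMT also rose (0.31, adjusted p = 0.0212). Between wild type and 3A none of the 6 was called.

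Among 15 nuclear export genes, 10 rose and 1 fell with 3A against no MYCN, beside 12.7% of all genes higher and 12.8% lower, with a median log2 fold change of 0.32 over the 15 and -0.04 over all genes. With the trend along exon length removed, 9 rose and 1 fell. ALYREF, which hands mRNA to the export receptor, had 667 ± 54.0 CPM with 3A and 479 ± 38.2 CPM with no MYCN (SD, n = 3 each; log2 fold change 0.48, edgeR adjusted p = 7.2e-04). NXT1, a subunit of that receptor, rose by 0.54 (edgeR adjusted p = 0.00287) and DDX39A, an export helicase, by 0.36 (adjusted p = 0.00301). With the trend along exon length removed, the log2 fold change was 0.26 for ALYREF (edgeR adjusted p = 0.0105) and 0.30 for NXT1 (adjusted p = 0.0335). With wild type MYCN against no MYCN 2 of the 15 rose, THOC1 and THOC6 of the THO complex (0.46 each, edgeR adjusted p = 0.00481 and 0.0248), and none fell, beside 10.9% higher and 11.3% lower over all genes. With the trend along exon length removed 4 rose, with DDX39A (0.22, edgeR adjusted p = 0.0296) and RAN, the transport GTPase (0.21, adjusted p = 0.049), added. Between wild type and 3A 1 was higher and 3 were lower, beside 15.8% and 14.5% of all genes. Among those lower was ALYREF (log2 fold change -0.48, edgeR adjusted p = 4.63e-04, or -0.28 with adjusted p = 0.00464 once the trend along exon length was removed). The 1 that was higher was not called with that trend removed. With EXOSC10 depleted 3 of the 15 rose and 5 fell, beside 13.5% and 13.7% of all genes. ALYREF had 92.3 ± 3.42 CPM in the shEXOSC10 libraries and 125 ± 2.90 CPM in the Control libraries (SD, n = 3 each, log2 fold change -0.43, edgeR adjusted p = 1.44e-08).

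Decapping genes act upstream of XRN1, since its substrates must first lose their cap. Of 16 tested in IMR-32, none rose and 5 fell with EXOSC10 depleted, or 4 with the trend along exon length removed, beside 13.5% of all genes higher and 13.7% lower. The median log2 fold change was -0.12. LSM14A, a P-body protein, had 14.9 ± 1.78 CPM in the shEXOSC10 libraries and 27.7 ± 3.87 CPM in the Control libraries (SD, n = 3 each; log2 fold change -0.89, edgeR adjusted p = 2.49e-09). LSM4, of the ring that binds deadenylated ends, fell by 0.28 on the log2 scale (edgeR adjusted p = 5.23e-04) and DDX6, a decapping helicase, by 0.68 (adjusted p = 0.00364). In SHEP 17 were tested, and with 3A against no MYCN 7 rose and 3 fell, or 5 and 2 with the trend along exon length removed, beside 12.7% of all genes higher and 12.8% lower. The ring genes LSM6, LSM4 and LSM7 were among those that rose (log2 fold change 0.60, 0.58 and 0.58, edgeR adjusted p = 2.96e-04, 3.53e-04 and 0.00103), LSM7 by 0.37 with that trend removed (adjusted p = 0.0047). With wild type MYCN against no MYCN 2 rose and none fell, beside 10.9% and 11.3% of all genes. They were LSM6 (0.40, edgeR adjusted p = 0.00644) and LSM4 (0.36, adjusted p = 0.0123). The ranges of LSM4 overlapped between these groups. Between wild type and 3A 4 were higher and 2 lower, or 4 and 1 with that trend removed, beside 15.8% and 14.5% of all genes. PATL1, a decapping activator, had 45.5 ± 5.99 CPM with wild type MYCN and 23.6 ± 2.64 CPM with 3A (SD, n = 3 each, log2 fold change 0.94, edgeR adjusted p = 2.56e-05). With that trend removed, PATL1 was lower with 3A than with no MYCN (-0.66, edgeR adjusted p = 8.06e-04). With wild type MYCN against no MYCN it was not called in that setting (0.28, edgeR adjusted p = 0.104).

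Of 16 genes of 3′ end cleavage and of termination, in which XRN2 acts, 2 rose and 3 fell with EXOSC10 depleted, a share near the 27.1% of all genes called. CSTF3, of the cleavage stimulation factor, changed by -0.42 (edgeR adjusted p = 5.68e-07), CPSF3, the cleavage nuclease, by -0.26 (adjusted p = 0.00844) and PCF11, a termination factor, by 0.20 (adjusted p = 0.0143). The ranges of CPSF3 overlapped between the IMR-32 groups. CPSF3 rose with wild type MYCN against no MYCN (log2 fold change 0.35, edgeR adjusted p = 0.0023), the only called gene of the 16 there, and with 3A (0.37, adjusted p = 0.00171), where 3 rose and 2 fell, or 2 and 1 with the trend along exon length removed. The shares over all genes were 22.2% and 25.5% in these comparisons. Between wild type and 3A 5 were higher and 1 lower, or 1 and 1 with the trend along exon length removed, beside 30.3% of all genes called.

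Of 13 other exonucleases tested in SHEP, 4 rose and none fell with wild type MYCN against no MYCN, beside 10.9% of all genes higher and 11.3% lower. With 3A against the same libraries 4 rose and none fell, or 3 with the trend along exon length removed, beside 12.7% and 12.8% of all genes. REXO2, a mitochondrial nuclease of very short RNAs, had 160 ± 17.2 CPM with wild type MYCN, 157 ± 4.84 CPM with 3A and 98.8 ± 4.34 CPM with no MYCN (SD, n = 3 each). It rose by 0.69 with wild type MYCN (edgeR adjusted p = 4.2e-06) and by 0.67 with 3A (adjusted p = 2.54e-05). AEN, a nuclease of the p53 response, rose by 0.62 with wild type MYCN (edgeR adjusted p = 7e-05) and by 0.38 with 3A (adjusted p = 0.00716). PNPT1, the mitochondrial polynucleotide phosphorylase, rose by 0.51 and 0.34 in the same comparisons (edgeR adjusted p = 2.09e-04 and 0.00827). With EXOSC10 depleted 1 of 14 rose and 3 fell, beside 13.5% and 13.7% of all genes. AEN rose (0.53, edgeR adjusted p = 2.58e-07). Among those that fell were REXO4 (-0.70, edgeR adjusted p = 0.00239) and REXO1 (-0.25, adjusted p = 0.00309), a pair of exonucleases of the REX family.

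Of 5 cytoplasmic exosome cofactors, which work with DIS3L or beside it, none was called with EXOSC10 depleted (0 in edgeR) and none with wild type MYCN against no MYCN. With 3A against no MYCN SKIC8 rose (log2 fold change 0.37, edgeR adjusted p = 0.00532) and SKIC3, also of the SKI complex, fell (-0.42, adjusted p = 0.0219), a fall that was not called with the trend along exon length removed. Between wild type and 3A SKIC8 was lower (-0.48, edgeR adjusted p = 4.4e-04). The next list holds 13 genes of cap recognition in translation and nuclear import, where the cap passes from the cap-binding complex to eIF4E. Of these 1 rose and 1 fell with EXOSC10 depleted, beside 27.1% of all genes called. Of 12 tested in SHEP, 3 rose and 1 fell with wild type MYCN against no MYCN, beside 22.2% of all genes called. With 3A 1 rose and 1 fell, beside 25.5%, and the one that fell, EIF4G3, a cap-dependent scaffold, was not called with the trend along exon length removed (edgeR adjusted p = 0.0666). The ranges of EIF4G3 overlapped between 3A and no MYCN. Between the forms 4 were higher and 2 lower, or 2 and 2 with the trend along exon length removed, beside 30.3% of all genes called. EIF4G2, a scaffold for translation without the cap, was higher with wild type MYCN than with no MYCN (0.29, edgeR adjusted p = 0.0196) and than with 3A (0.47, adjusted p = 3.95e-04, or 0.30 with adjusted p = 0.00268 once that trend was removed).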

How the data were processed

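Per the file headers, the deposited values are raw counts per gene with no normalization, made by the authors. The submitters' processing notes name STAR 2.7.10a, featureCounts 2.0.3 and hg19. The header of the SHEP table states strand-specific counting, with reads over several genes counted for each; settings of the IMR-32 table are not given in the sources used here. No molecular identifiers are stated. Columns were joined to libraries by the doxycycline or solvent name and replicate number in IMR-32, where 4sU samples carry similar labels, and by group and number in SHEP.

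R 4.3.3 with edgeR 4.0.16 (filterByExpr, TMM, robust quasi-likelihood test, all SHEP groups in 1 fit), limma 3.58.1 and DESeq2 1.42.0 was used, and the code was tested on simulated data. Replicates differed by more than counting noise. Alternatives were library totals, DESeq2, no filter, 2 groups alone, the replicate block, leaving out each library, and, chosen after seeing the data, an offset that removes each library's trend along exon length.

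The members, lists and rules were chosen with earlier results of these data known. The text names all 10 members, EXOSC10 and MYCN, up to 3 called genes with the smallest p of each list and comparison, and 2 nearest genes for 3 members; some genes that this rule names are not reported here. RefSeq windows use GRCh38.p14, and all other positions hg19.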

Additional observations from a re-analysis of the deposited data

How the results depend on the processing

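Of the 10 transcripts, 4 were called with EXOSC10 depleted, and leaving out a library gave 1 to 4. With wild type MYCN against no MYCN 1 was called in every setting, and leaving out a library gave 1 to 1. With 3A against no MYCN 1 was called, but 2 with library totals, where NCBP3 was added (edgeR adjusted p = 0.0466), 0 with the trend along exon length removed, and 0 to 1 when a library was left out. Between wild type and 3A 2 were called, but 1 with the trend along exon length removed and 1 to 2 when a library was left out, ZC3H18 being kept. No called change reversed. The labels do not say whether equal replicate numbers mark a shared batch, and this was not tested. In IMR-32, residuals of libraries with the same number correlated at r = 0.025 to 0.044, against -0.031 to -0.012 for different numbers. In SHEP the range was -0.03 to 0.14 for the same number and -0.13 to 0.06 for different numbers. With the replicate number as a block 5, 1, 1 and 2 of the 10 were called in these comparisons, SRRT being the addition, and 5251, 4184, 4794 and 5414 of all genes, against 4639, 3315, 3806 and 4527 without it. Library totals gave 1163 higher calls of 3310 for wild type MYCN and 1232 of 4160 for 3A, against 1634 of 3315 and 1893 of 3806 with TMM, and moved the median of all genes for 3A to -0.14, against -0.04 with TMM. The cause was not tested. Depth limits XRN1 in SHEP, with 74 to 261 counts a library.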

Other observations

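Deadenylation, which shortens the tail before decapping, had 1 of 15 genes higher and 1 lower with EXOSC10 depleted, or 1 and 2 with the trend along exon length removed, beside 27.1% of all genes called. The first pair were PAN2 (log2 fold change 0.36, edgeR adjusted p = 2.59e-05) and CNOT6 (-0.27, adjusted p = 0.00289), both catalytic subunits of deadenylases. TOE1, a nuclear deadenylase that trims small nuclear RNAs, had 64.1 ± 6.52 CPM with wild type MYCN, 56.9 ± 5.13 CPM with 3A and 43.5 ± 4.80 CPM with no MYCN (SD, n = 3 each). It rose with wild type MYCN (0.56, edgeR adjusted p = 7.37e-04) and with 3A (0.39, adjusted p = 0.0141), a call with 3A that was lost with the trend along exon length removed (0.26, adjusted p = 0.0662). In all, 2 of the 15 rose and none fell with wild type MYCN, 2 rose and 3 fell with 3A, or 2 and 0 with the trend along exon length removed, and 5 were higher and none lower between the forms, or 2 with that trend removed. The shares over all genes were 22.2%, 25.5% and 30.3% in these comparisons.

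Nonsense-mediated decay, which removes messenger RNAs with early stop codons, had 3 of 10 genes higher and none lower with EXOSC10 depleted, or 2 and none with the trend along exon length removed, beside 13.5% of all genes higher and 13.7% lower, among them UPF1, the central helicase (log2 fold change 0.22, edgeR adjusted p = 0.00556), and UPF3A (0.24, adjusted p = 0.00887). With wild type MYCN 3 rose and 1 fell, or 4 and 1 with that trend removed, and with 3A 1 rose and 1 fell, or 1 and 0, beside 22.2% and 25.5% of all genes called. UPF1 had 165 ± 22.0 CPM with wild type MYCN, 120 ± 7.51 CPM with 3A and 129 ± 5.33 CPM with no MYCN (SD, n = 3 each), and its level with wild type exceeded that with 3A (0.46, edgeR adjusted p = 7.31e-04, or 0.28 with adjusted p = 0.0118 once that trend was removed). Between the forms 5 of the 10 were higher and none lower, or 2 with the trend along exon length removed, beside 15.8% of all genes higher and 14.5% lower.

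Of 18 genes that process small nuclear, histone and micro RNAs, 1 rose and 3 fell with EXOSC10 depleted, or 1 and 4 with the trend along exon length removed, a share near the 27.1% of all genes called. Among them was LSM11, of the histone pre-mRNA machinery (log2 fold change -0.61, edgeR adjusted p = 6.25e-07). LSM10, its partner, rose in SHEP with wild type MYCN (0.31, edgeR adjusted p = 0.0282) and with 3A (0.51, adjusted p = 7.28e-04, or 0.29 with adjusted p = 0.0178 once that trend was removed). With wild type MYCN against no MYCN 1 rose and 0 fell, or 2 and 0 with that trend removed, beside 22.2% of all genes called. With 3A 2 rose and 2 fell, or 3 and 2, beside 25.5%. Those that fell were INTS6 (-0.60, edgeR adjusted p = 0.00268) and INTS3 (-0.63, adjusted p = 0.00504). Between the forms 6 of the 18 were higher and 1 lower, or 3 and 1 with the trend along exon length removed, beside 30.3% of all genes called.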
